A study of Mus musculus with 64 samples.

Results

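Interval training of mice without the troponin transgene was compared with no training in 33 of the 64 heart libraries of the series. All were from C57BL/6J mice labelled nTG, the non-transgenic counterparts of TG mice, which carry the cTnT-delta160E form of cardiac troponin T in a model of hypertrophic cardiomyopathy; the promoter of the transgene and the ages of the mice are not given in the sources used here. The members were chosen by their titles: 8 M and 10 F mice labelled HIIT (high-intensity interval training) and 7 M and 8 F mice labelled Sed (sedentary), each a separate biological replicate by its label. Trained mice ran on a treadmill for 6 weeks, on 3 days a week, in sessions of 31 minutes with 4 intervals at high (85%) and 4 at low (50%) intensity, as a share of the average speed of the group in a graded test, and the speeds were raised every week. Sedentary mice did not exercise. The comparison asks what the training does to a heart without the disease transgene. The time of day of collection and the time since the last session are not given in the sources used here.

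The columns of the gene table had to be put in order before the labels could be used. The lncRNA table and the gene table hold 389 autosomal transcripts in common with a mean of at least 20 counts. Over these, each lncRNA column had 1 gene column that correlated best with it (Pearson's r of centred log2 values), and all 64 such pairs were also best in the reverse direction. For the 33 nTG libraries the best r was 0.605 to 0.863 and the next best at most 0.316. In 0 of these 33 pairs did the 2 columns carry the same name. After the match, Xist was at 242 to 388 CPM (counts scaled to libraries of 1 megacount) in F and at most 2.35 CPM in M nTG libraries, and Tnnt2 was at 2665 to 3428 CPM in nTG against 6903 to 12001 CPM in TG libraries. By the deposited names, 24 of the 33 nTG libraries would go against their labelled sex or genotype. All results below rest on the matched columns. Gene totals were 36.6 to 67.1 megacounts per library. The 10 cardiomyocyte markers summed to 76870 to 93240 CPM over the 33 libraries, and the skeletal muscle genes Mylpf, Tnnt3, Tnnc2, Myh1, Myh2, Myh4, Pvalb and Actn3 were absent from the table. Of that list 7 of 16 genes were present, among them Acta1 and Ckm, which heart muscle also expresses. They summed to 1795 to 2189 CPM in sedentary and 1806 to 2579 CPM in trained M hearts, 3 of which exceeded every sedentary one, and to 1662 to 2075 CPM and 1708 to 2256 CPM in F hearts. None of the 7 passed edgeR's test of training, and 1 was lower at an unadjusted p under 0.05, where 6.71% of all genes were. In bulk tissue, fewer cells of a type and less RNA per cell cannot be told apart.

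A heart at work burns mainly fatty acids, with glucose, lactate and stored glycogen as further fuels. Hexokinases trap glucose in the cell, glycogen synthase stores it, phosphorylase kinase starts its release, and the glycerol-phosphate and malate-aspartate shuttles carry the reducing equivalents of glycolysis into mitochondria. Endurance training is known for mild, reversible growth of the heart through insulin-like growth factor and PI3-kinase signalling, without the fetal genes and the collagen deposition that mark disease.

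Training changed 43 of 16913 genes in nTG hearts by the main test. They passed edgeR's quasi-likelihood F test at an adjusted p under 0.05 with sex as a covariate, 0.254% of those tested. The count was 201 with DESeq2 and 9 to 107 by edgeR with 1 library left out, the lowest without sedentary F replicate 5 and the highest without sedentary F replicate 6, and 2286 genes had an unadjusted p under 0.05. Of the 43, 33 were higher (0.195%) and 10 lower (0.0591%) in trained hearts. The rising genes differed by 0.11 to 0.30 on the log2 scale, with a median of 0.17, or 12.7% more transcript. The falling genes differed by -0.94 to -0.20 on the log2 scale, with a median of -0.34. The lowest adjusted p of this edgeR comparison was 0.0221, shared by 9 genes. Enzymes of glucose, glycogen and redox metabolism (Gpd1, Got1, Hk1, Gys1 and Phka1) were among the rising genes, and 3 of the 10 falling genes encode collagen chains. Both groupings were made after the values were seen, and neither was tested as a set.

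Gpd1, the cytosolic enzyme of the glycerol-phosphate shuttle, had the largest rise of the 43 in log2 terms. In M hearts it was at 55.9 to 68.2 CPM (median 63.8) without training and at 70.3 to 104 CPM (median 80.4) with it. All 8 trained M libraries lay above every sedentary one, while the F groups overlapped, at 39.6 to 69.7 CPM (median 59.2) and 60.5 to 89.0 CPM (median 67.5). The fitted log2 fold change was 0.30 ± 0.06 (SE), with an adjusted p of 0.0221 by edgeR. Got1, the cytosolic aminotransferase of the malate-aspartate shuttle, was at 585 to 652 CPM in sedentary and 637 to 736 CPM in trained M hearts. In F hearts its values were 492 to 634 CPM and 621 to 737 CPM, so that 6 of 8 trained M and 8 of 10 trained F libraries exceeded every sedentary library of their sex. The fold change was 0.16 ± 0.03 on the log2 scale (SE; adjusted p 0.0221 by edgeR). Gpd1 and Got1 were the only enzymes of these shuttles among the 43 called genes, and they were grouped after their values were seen.

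Hk1, one of the hexokinases, was at 232 to 282 CPM (median 258) in sedentary F and 266 to 329 CPM (median 293) in trained F hearts, and 9 of 10 trained F libraries lay above all sedentary ones. In M hearts the groups overlapped more, at 231 to 282 CPM (median 257) without and 259 to 286 CPM (median 267) with training. The mean effect was 0.17 ± 0.03 (SE, log2; edgeR adjusted p 0.0222). Gys1, the muscle form of glycogen synthase, was at 180 to 225 CPM in sedentary and 211 to 260 CPM in trained M hearts, and at 177 to 216 CPM and 212 to 242 CPM in F hearts, a log2 fold change of 0.16 ± 0.03 (edgeR adjusted p 0.0222). Phka1, the muscle regulatory subunit of phosphorylase kinase, was at 49.3 to 56.4 CPM in sedentary and 52.3 to 67.9 CPM in trained M hearts. In F hearts it was at 46.8 to 54.6 CPM and 50.7 to 62.6 CPM, and all 18 trained libraries lay above the sedentary median of their sex. The fit gave 0.18 ± 0.03 on the log2 scale (edgeR adjusted p 0.0221).

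Pfkfb4 moved the other way. It encodes an enzyme that makes and breaks down fructose-2,6-bisphosphate, the activator of glycolysis. It was at 3.04 to 3.71 CPM (median 3.54) in sedentary and 2.303 to 3.55 CPM (median 2.89) in trained M hearts. In F hearts it was at 2.82 to 3.99 CPM (median 3.70) and 2.17 to 3.26 CPM (median 2.71), and 17 of 18 trained libraries lay below the sedentary median of their sex. On the log2 scale the difference was -0.34 ± 0.06 (SE; adjusted p 0.0221 by edgeR).

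**Figure D1:**
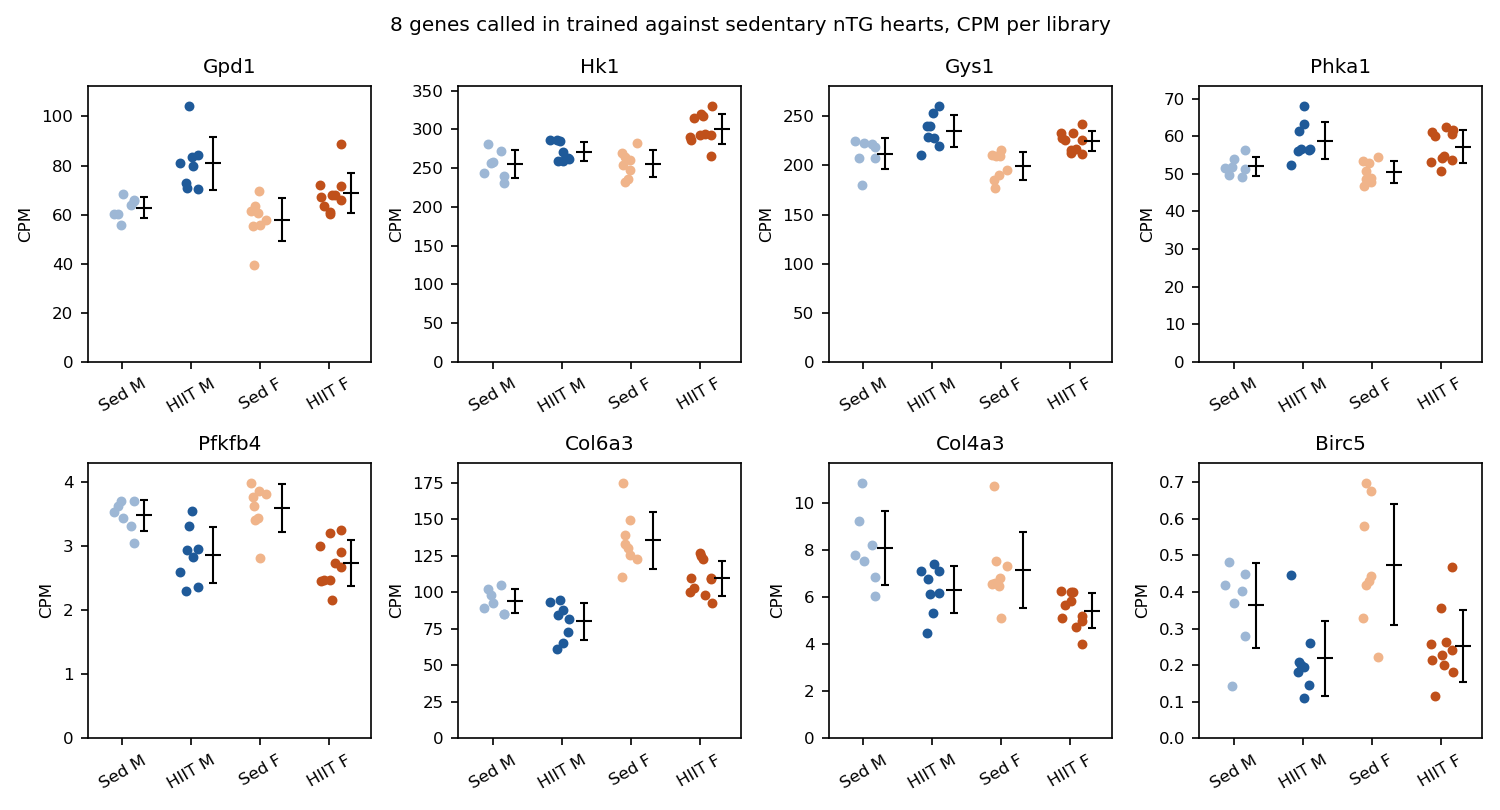
CPM (scaled by TMM, y axis from 0) of 8 called genes in each nTG library, by group on the x axis; points are libraries and black bars are the mean ± SD (n = 7 sedentary M, 8 trained M, 8 sedentary F, 10 trained F). The groups overlap in most panels, with the clearest gaps for Gpd1 in M (sedentary at most 68.2, trained at least 70.3 CPM) and for Hk1 in F hearts, where 9 of 10 trained libraries exceed 282 CPM.

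The other genes on the list of glucose transport, glycolysis and glycogen lay above 0, and none of them passed the adjusted threshold. All 22 genes of that list were tested and 2 were called higher, Gys1 and Hk1, where 0.195% of all genes were. The median log2 fold change of the list was 0.05, against -0.0066 over all genes, and 22 of 22 members were above 0, where 46.3% of all genes were. Members with an unadjusted p under 0.05 numbered 7 above 0 and 0 below, against 6.81% and 6.71% of all genes. They include Slc2a4, the insulin-responsive glucose transporter, at 0.10 ± 0.03 (edgeR adjusted p 0.149). The M median was 0.02 and the F median 0.10, and the difference between the sexes had an unadjusted p under 0.05 in 7 of the 22 genes, against 6.6% of all genes, with none past the adjusted threshold.

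Among genes of fatty acid uptake and oxidation, 1 of 20 rose, where 0.195% of all genes did. Acsl1, which activates long-chain fatty acids to their CoA esters, was at 825 to 945 CPM in sedentary and 919 to 1013 CPM in trained M hearts and at 783 to 928 CPM and 847 to 992 CPM in F hearts. It rose by 0.11 ± 0.02 on the log2 scale (SE; adjusted p 0.0386 by edgeR). The list had a median of 0.05, with 18 of 20 members above 0, where 46.3% of all genes were. In M hearts its median was 0.0039 and in F hearts 0.10, and 6 of its genes had an unadjusted p under 0.05 for the difference between the sexes, against 6.6% of all genes, with none past the adjusted threshold. None of the 20 tested PPAR-alpha and fuel-switch genes and none of the 20 regulators of mitochondrial biogenesis passed the edgeR threshold; at an unadjusted p under 0.05, 2 and 7 of them were higher and 0 lower, against 6.81% and 6.71% of all genes. Ppargc1a, the coactivator PGC-1-alpha, had 0.15 ± 0.04 on the log2 scale (edgeR adjusted p 0.126).

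Lists of signalling, calcium and channel genes held 2 calls in all. Pik3r1, the main regulatory subunit of PI3-kinase, was at 184 to 211 CPM (median 189) in sedentary and 181 to 250 CPM (median 226) in trained M hearts, and at 182 to 231 CPM (median 193) and 193 to 264 CPM (median 223) in F hearts. The ranges overlapped, and 17 of 18 trained libraries lay above the sedentary median of their sex. The rise was 0.21 ± 0.04 on the log2 scale (SE; adjusted p 0.0221 by edgeR). It was the single gene of the 21 on the list of IGF1-PI3K and physiological growth to pass. For comparison, 0.195% of all genes were called higher. At an unadjusted p under 0.05, 3 of the 21 were higher and 0 lower, against 6.81% and 6.71% of all genes. Slc8a1, the sodium-calcium exchanger that removes calcium from the myocyte after each beat, was at 689 to 783 CPM in sedentary and 706 to 952 CPM in trained M hearts and at 594 to 868 CPM and 769 to 889 CPM in F hearts. The rise was 0.19 ± 0.04 on the log2 scale (edgeR adjusted p 0.0349), and Slc8a1 was the single gene of the 16 on the calcium cycling list to pass. Of those 16, 5 were higher and 0 lower at an unadjusted p under 0.05. The list of potassium, sodium and gap-junction channels had 0 of 20 genes past the adjusted threshold, and 9 higher and 0 lower at an unadjusted p under 0.05, against 6.81% and 6.71% of all genes, with medians of 0.05 in M and 0.14 in F hearts. The smallest p was that of Kcnq1, a subunit of the slow delayed rectifier potassium channel (0.15 ± 0.04, edgeR adjusted p 0.08).

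The remaining rising genes named by the rule span several roles. Rab7, the GTPase of late endosomes, was at 159 to 176 CPM in sedentary and 181 to 201 CPM in trained M hearts, without overlap. Its F values did overlap, at 155 to 181 CPM and 163 to 197 CPM, and its log2 fold change was 0.13 ± 0.03 (edgeR adjusted p 0.0221). Card19, a protein with a caspase recruitment domain, had the smallest p of all genes: it was at 28.99 to 31.5 CPM in sedentary and 28.9 to 39.7 CPM in trained M hearts and at 27.8 to 33.8 CPM and 30.4 to 39.4 CPM in F hearts (0.19 ± 0.04, edgeR adjusted p 0.0221). Further rises were those of Rnf128, a ubiquitin ligase of membrane traffic (0.14 ± 0.03), Sh3kbp1, an adaptor in receptor uptake (0.23 ± 0.05), Tns1, which links integrins to actin (0.14 ± 0.03), and Msrb1, a selenoprotein that repairs oxidised methionine (0.22 ± 0.05). Slc16a10, a transporter of aromatic amino acids, had 0.18 ± 0.04, Pla2g12a, a secreted phospholipase, 0.17 ± 0.04, and Rsad1 0.19 ± 0.04 on the log2 scale, with edgeR adjusted p of 0.0325 for each of these 3. Among called genes outside the naming rule, and so chosen after their values were seen, Alas1, the first enzyme of heme synthesis, was higher by 16.4%, Atp1b1, a subunit of the sodium pump, by 10.3%, and Kcnj12, an inward rectifier potassium channel, by 12.7%.

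The falling genes of the extracellular matrix were collagens of different kinds. Col6a3, a chain of the microfibrillar type VI collagen, was at 84.9 to 105 CPM (median 92.7) in sedentary and 61.4 to 94.8 CPM (median 83.2) in trained M hearts. In F hearts it was at 111 to 175 CPM (median 132) and 92.4 to 127 CPM (median 110), and 16 of 18 trained libraries lay below the sedentary median of their sex. The fitted difference was -0.27 ± 0.06 on the log2 scale (SE; adjusted p 0.0325 by edgeR). Col5a3, a chain of the type V collagen that fibrils are built around, was at 63.2 to 74.8 CPM in sedentary and 41.6 to 64.8 CPM in trained M hearts and at 61.1 to 93.1 CPM and 43.4 to 77.1 CPM in F hearts. All 18 trained libraries lay below the sedentary median of their sex (-0.32 ± 0.07, edgeR adjusted p 0.0325). Col4a3, a chain of the type IV collagen of basement membranes, was at 6.04 to 10.8 CPM in sedentary and 4.48 to 7.41 CPM in trained M hearts and at 5.10 to 10.7 CPM and 4.00 to 6.26 CPM in F hearts (-0.38 ± 0.08, edgeR adjusted p 0.0349).

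Of the 18 genes on the list of fibrillar and associated collagens, 1 fell, Col6a3, where 0.0591% of all genes were called lower. The list had 16 genes below 0, where 46.3% of all genes were above 0. Its median log2 fold change was -0.15 (M -0.07, F -0.21). Without sedentary F replicate 4 the median was -0.08, and with the other libraries left out in turn it was as low as -0.17. Members with an unadjusted p under 0.05 were 8 lower and 0 higher, where 6.71% of all genes were lower at that level. Col3a1, a main fibrillar chain, had -0.42 ± 0.10 (edgeR adjusted p 0.0713) and Col1a1 had -0.24 ± 0.10 (edgeR adjusted p 0.262). Col4a3 was the 1 gene of 14 on the basement membrane list to fall, with 6 lower and 0 higher at that level. Its median was -0.05, and -0.03 without sedentary F replicate 4. Of the 21 profibrotic and matricellular genes 20 were below 0, and 0 passed by edgeR, with 1 lower at that level and medians of -0.02 in M and -0.24 in F hearts. Over both sexes that list had a median of -0.10, and -0.07 without sedentary F replicate 4. The 9 tested fibroblast markers were all below 0, with a median of -0.10 (M -0.08, F -0.15), 3 of them at that level. They summed to 1697 to 2519 CPM in sedentary and 1535 to 2271 CPM in trained M hearts and to 1895 to 2854 CPM and 1837 to 2677 CPM in F hearts, and their part in the collagen values was not tested.

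Outside the matrix, 4 further falling genes were named. Afap1l2, an adaptor that binds Src-family kinases, was at 3.85 to 4.67 CPM in sedentary and 2.76 to 3.66 CPM in trained M hearts, without overlap. In F hearts it was at 4.45 to 5.94 CPM and 2.97 to 5.95 CPM, and the fit gave -0.33 ± 0.07 on the log2 scale (SE; adjusted p 0.0222 by edgeR). Dtx4, a ubiquitin ligase of the Deltex family in Notch signalling, fell by 0.21 (SE 0.04, log2), and Enpep, the aminopeptidase that trims angiotensin II, fell by 0.20 (SE 0.05), with edgeR adjusted p of 0.0325 and 0.0458.

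Of all genes, 0.0591% were called lower and 46.3% were above 0. Birc5, the mitotic survival protein survivin, was the 1 called gene of 21 tested on the list of cell cycle and proliferation. It was at 0.144 to 0.482 CPM (median 0.403) in sedentary and 0.109 to 0.446 CPM (median 0.198) in trained M hearts, and at 0.222 to 0.698 CPM (median 0.436) and 0.115 to 0.468 CPM (median 0.234) in F hearts. Its mean was 16.2 counts per library, and the difference of -0.82 ± 0.19 on the log2 scale (SE; adjusted p 0.0458 by edgeR) rests on few reads. The list had a median of -0.21 with 19 of 21 genes below 0 (M median -0.15, F median -0.26), and 12 lower and 0 higher at an unadjusted p under 0.05, against 6.71% and 6.81% of all genes. Mki67, the proliferation marker, had -0.55 ± 0.19 (edgeR adjusted p 0.172) and Aurkb, a mitotic kinase, -0.85 ± 0.24 (edgeR adjusted p 0.113). Macrophage markers had 13 of 16 genes below 0, with 7 lower and 1 higher at that level. Their median was 0.0053 in M hearts, with 0 lower and 1 higher, and -0.20 in F hearts, with 7 lower and 0 higher. Of all genes, 6.59% in M and 14.3% in F hearts had such a p in either direction. The macrophage markers summed to 239 to 331 CPM in sedentary and 237 to 320 CPM in trained M hearts, and to 300 to 450 CPM and 268 to 373 CPM in F hearts. Their part in the cell cycle values was not tested.

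All 43 genes had the same direction in M and in F hearts, as the plot of effects by sex shows. The rule for calling averages both sexes, so this is a description of the called genes and not a separate test. Within a sex, edgeR called 0 of 16913 genes (0% of those tested), with 1114 genes (6.59%) at an unadjusted p under 0.05 in M and 2413 (14.3%) in F hearts. DESeq2 called 2 genes in M and 220 in F, and limma voom with sample weights 1 and 11. For the 33 rising genes the median log2 fold change was 0.16 in M and 0.18 in F, and for the 10 falling genes it was -0.35 in both. Tests of the difference between the sexes called 0 genes by edgeR, with 1117 at an unadjusted p under 0.05 (6.6%), and 2 by DESeq2. Of the 43, 2 had such an unadjusted p. Hk1 had 0.09 ± 0.05 in M and 0.23 ± 0.04 in F hearts (SE, log2; unadjusted edgeR p of the difference 0.0351). Slc41a1, a magnesium transporter, had 0.08 ± 0.05 in M and 0.25 ± 0.05 in F hearts (unadjusted edgeR p of the difference 0.0203).

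**Figure D2:**
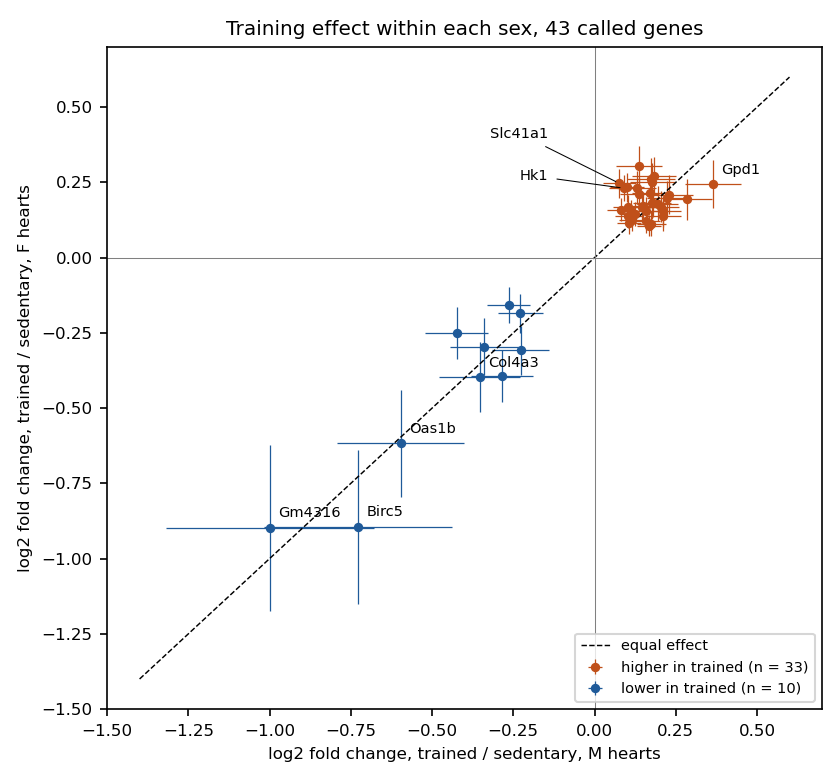
Log2 fold change of trained over sedentary nTG hearts within M (x axis) and within F (y axis) for the 43 called genes; points are genes, bars are standard errors and the dashed line marks equal effects. All 33 genes higher in trained hearts lie in the upper right and all 10 lower genes in the lower left, with Hk1 and Slc41a1 above the line.

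The interferon list had the lowest median of the 37 lists with at least 7 genes tested, as the plot of list medians shows, but none of its genes passed the adjusted threshold. Interferons signal through STAT and IRF proteins, which bind the interferon-stimulated response element and switch on antiviral genes and antigen presentation. All 24 genes of the list were below 0 in trained hearts, where 46.3% of all genes were above 0. The median log2 fold change of the list was -0.32 (M -0.29, F -0.36). By edgeR 0 of 24 had an adjusted p under 0.05, and 19 were lower and 0 higher at an unadjusted p under 0.05, against 6.71% lower of all genes. Oas1b, a gene of the Oas1 family outside the list and the naming rule, was among the 10 called falling genes: it was at 0.439 to 1.31 CPM in sedentary and 0.439 to 0.805 CPM in trained M hearts and at 0.683 to 1.28 CPM and 0.363 to 1.04 CPM in F hearts (-0.61 ± 0.13, edgeR adjusted p 0.0325). It is part of a cluster of near-identical Oas1 genes, so its reads are uncertain.

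The promoters of 4 genes of the list are shown because they hold matches to the response element, searched as GAAA, any 2 bases and again GAAA on both strands, a choice made after the values of the list had been seen. Each is the 250 bases before the RefSeq start of the gene in GRCm38.p6, 5′ to 3′ along the strand of the gene, with matches in capitals; overlapping matches run together. Bst2 is on the minus strand at chr8:71537473-71537722, Oas1a on the minus strand at chr5:120907526-120907775, Ifit3 on the plus strand at chr19:34583279-34583528 and Ifit1 on the plus strand at chr19:34640639-34640888.
Bst2: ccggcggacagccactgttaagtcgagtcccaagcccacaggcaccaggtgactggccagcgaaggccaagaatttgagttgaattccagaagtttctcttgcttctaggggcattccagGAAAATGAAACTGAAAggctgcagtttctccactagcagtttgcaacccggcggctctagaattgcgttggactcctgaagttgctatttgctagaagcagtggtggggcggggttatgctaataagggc
Oas1a: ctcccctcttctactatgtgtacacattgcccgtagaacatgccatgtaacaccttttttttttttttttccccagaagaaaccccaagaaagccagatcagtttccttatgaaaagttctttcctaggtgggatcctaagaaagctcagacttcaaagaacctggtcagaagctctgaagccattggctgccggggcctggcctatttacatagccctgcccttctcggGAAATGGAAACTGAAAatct
Ifit3: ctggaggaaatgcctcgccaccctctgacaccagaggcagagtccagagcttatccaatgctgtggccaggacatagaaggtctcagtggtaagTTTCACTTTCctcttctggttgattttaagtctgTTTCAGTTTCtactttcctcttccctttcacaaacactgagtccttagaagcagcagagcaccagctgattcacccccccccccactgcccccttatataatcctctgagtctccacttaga
Ifit1: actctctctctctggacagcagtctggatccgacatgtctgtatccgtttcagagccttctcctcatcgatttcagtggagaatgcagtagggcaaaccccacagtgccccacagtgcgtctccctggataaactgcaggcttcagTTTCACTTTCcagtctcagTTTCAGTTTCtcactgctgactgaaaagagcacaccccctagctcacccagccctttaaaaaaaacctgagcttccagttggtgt
Of the 24 genes, 18 had a promoter in the RefSeq table, and 8 of these held the letters within the window of 300 bases from 250 before to 50 after the start, against 3.44% of all 32851 promoters. Of the 38 called genes with a RefSeq promoter, 0 held the letters. A match of letters is a description and not a bound site.

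Bst2, a membrane protein that tethers budding viruses, was at 6.81 to 19.7 CPM (median 8.55) in sedentary and 5.75 to 7.94 CPM (median 7.05) in trained M hearts, and at 7.05 to 14.97 CPM (median 10.5) and 6.94 to 11.3 CPM (median 8.59) in F hearts. The fit gave -0.41 ± 0.11 on the log2 scale (SE; adjusted p 0.0801 by edgeR). Ifit1, which binds foreign RNA caps, was at 2.31 to 9.56 CPM in sedentary and 2.28 to 3.92 CPM in trained M hearts and at 3.64 to 8.36 CPM and 1.91 to 6.01 CPM in F hearts (-0.43 ± 0.15, edgeR adjusted p 0.19). Ifit3, its partner, had -0.50 ± 0.17 and Oas1a -0.49 ± 0.15. The groups overlapped for each of these genes, and the spread within the sedentary groups was wide. The summed level of the 24 genes was 558 to 1074 CPM (median 719) in sedentary and 528 to 732 CPM (median 670) in trained M hearts, and 738 to 1175 CPM (median 880) and 624 to 1007 CPM (median 745) in F hearts. The highest sedentary M library, replicate 7, was at 1074 CPM, and the other 6 were at 558 to 771 CPM. When each library was left out in turn, the median of the list stayed between -0.36 and -0.27. Of the 10 lymphocyte markers tested, 7 were below 0, where 46.3% of all genes were above 0. At an unadjusted p under 0.05, 1 was lower, where 6.71% of all genes were. The part of the lymphocyte markers, with that of the macrophage markers given above, was not tested.

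**Figure D3:**
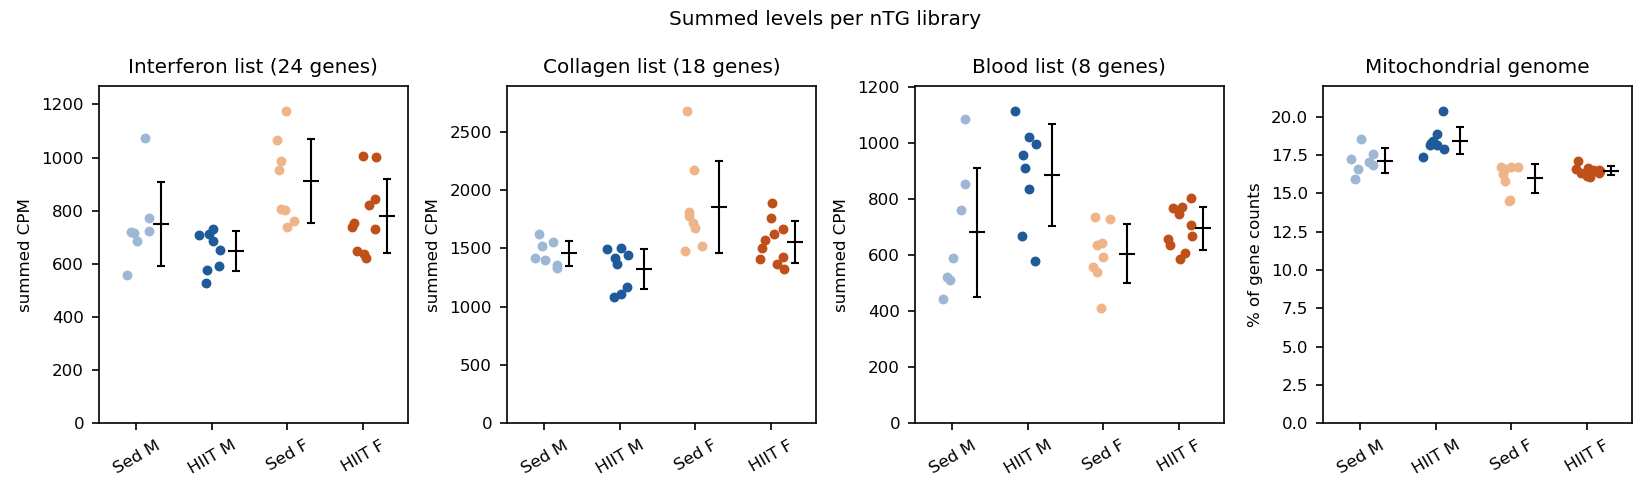
Summed CPM (y axis from 0) of the interferon, collagen and blood lists, and the percent of gene counts from the mitochondrial genome, in each nTG library by group; points are libraries and black bars are the mean ± SD (n = 7, 8, 8 and 10 from left to right). The groups overlap in every panel, and sedentary M replicate 7 stands apart in the interferon panel at 1074 CPM.

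Transcripts of the mitochondrial genome took a larger share of the counts in trained M hearts. The 15 mitochondrial genes of the table held 15.94% to 18.52% of gene counts in sedentary M libraries (17.11 ± 0.81, SD, n = 7) and 17.33% to 20.36% in trained ones (18.43 ± 0.90, SD, n = 8). The difference had a two-sided exact permutation p of 0.00777, or 0.0155 adjusted over both sexes. In F libraries the share was 14.48% to 16.71% without training (15.97 ± 0.94, SD, n = 8) and 16.09% to 17.10% with it (16.47 ± 0.29, SD, n = 10), with an exact permutation p of 0.164. Among the 13 mitochondrially encoded mRNAs, all 13 were above 0 with a median log2 fold change of 0.13 (M 0.17, F 0.11), where 46.3% of all genes were above 0, and 9 were higher at an unadjusted p under 0.05, against 6.81% of all genes. By edgeR 0 of 13 passed the adjusted threshold, and 0 of 13 had an unadjusted p under 0.05 for the difference between the sexes. The lowest adjusted p was that of mt-Nd1, a subunit of complex I, at 0.0659 (0.15 ± 0.04). Of the 18 nuclear subunits of complex I, 0 were called; their median of 0.01 was -0.0051 without sedentary F replicate 4 and 0.03 without sedentary F replicate 7.

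Clock genes had the second highest median among these lists and a wide spread between libraries. All 19 were tested and 0 passed by edgeR, with 5 higher and 1 lower at an unadjusted p under 0.05, against 6.81% and 6.71% of all genes, and a median of 0.20 on the log2 scale. Per2, a repressor arm of the clock, was at 3.72 to 14.8 CPM in sedentary and 4.91 to 22.5 CPM in trained M hearts and at 4.27 to 21.4 CPM and 6.59 to 20.6 CPM in F hearts, so that single groups spanned a several-fold range (0.67 ± 0.23, edgeR adjusted p 0.177). Its opposite in phase, the activator Npas2, had -0.48 ± 0.16 (edgeR adjusted p 0.159). The output factors Hlf and Tef, which bind the D-box, had 0.36 ± 0.11 and 0.34 ± 0.11 (edgeR adjusted p 0.14 and 0.163). The D-box, searched as TTATGNAA on both strands, was in the promoters of 2 of the 38 called genes with a RefSeq promoter, Pla2g12a and Srpk2, against 3.38% of all promoters. The clock E-box, CACGTG, was in those of Mlip and Eef2k, against 7.15%.

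Hemoglobin and other red cell genes had the highest median of these lists. All 8 tested were above 0, where 46.3% of all genes were, with a median of 0.26 (M 0.34, F 0.15). Of the 8, 6 were higher at an unadjusted p under 0.05, where 6.81% of all genes were, and 0 passed the adjusted threshold. Their sum was 443 to 1086 CPM in sedentary and 579 to 1116 CPM in trained M hearts, and 411 to 737 CPM and 586 to 807 CPM in F hearts. Hbb-bs, an adult beta-globin, had 0.29 ± 0.10 (edgeR adjusted p 0.187); it and its near-identical copies share reads. How blood in the tissue bears on the other lists was not tested.

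None of the natriuretic and fetal-programme genes passed the test. Of the 12 on that list, 0 had an unadjusted p under 0.05 in either direction, with a median log2 fold change of -0.0035. That median was -0.02 to 0.08 with 1 library left out, the highest without sedentary M replicate 5, and 0.09 with the replicate number as a block. Nppa, the atrial natriuretic peptide, had -0.10 ± 0.29 and Nppb, the brain natriuretic peptide, -0.05 ± 0.15. Myh7, the slow myosin heavy chain, was at 414 to 653 CPM in sedentary and 231 to 2175 CPM in trained M hearts and at 183 to 643 CPM and 151 to 817 CPM in F hearts (0.31 ± 0.23, edgeR adjusted p 0.599). The high value is trained M replicate 2, whose list sum was 6026 CPM where the other 7 of its group were at 2311 to 3579 CPM. The 20 immediate early genes had 0 calls and a median of -0.20 in M and 0.03 in F hearts, and the difference between the sexes had an unadjusted p under 0.05 in 7 of them, against 6.6% of all genes, none past the adjusted threshold. In M hearts 6 of the 20 were lower and 0 higher at an unadjusted p under 0.05, where 6.59% of all genes had such a p in either direction.

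**Figure D4:**
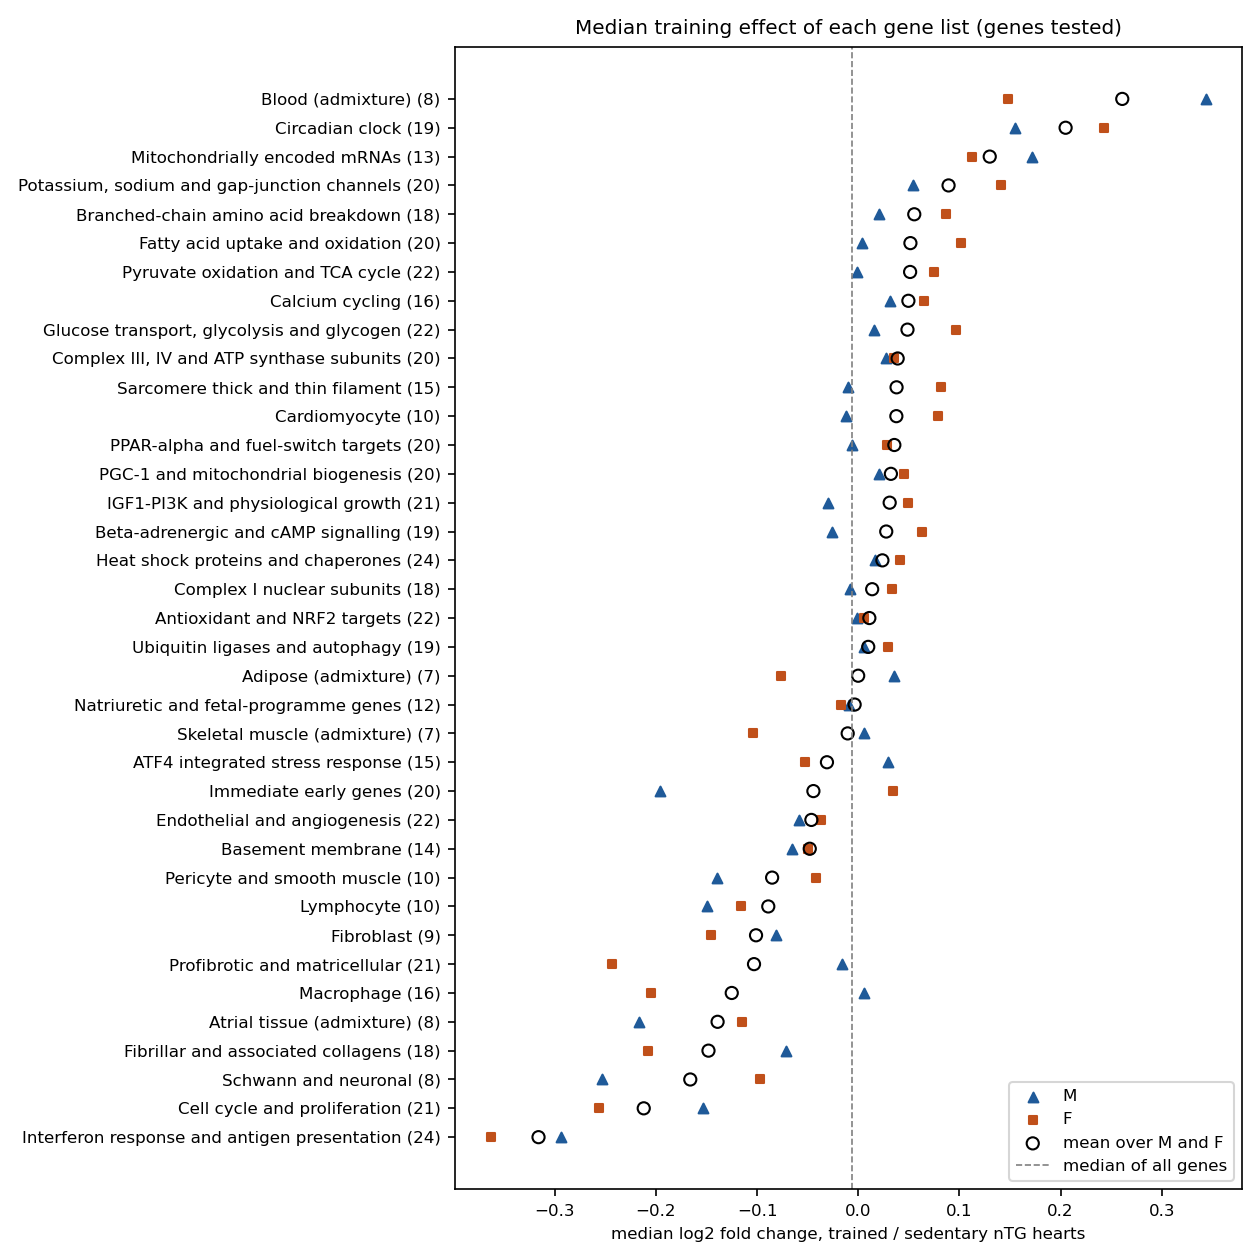
Median log2 fold change of trained over sedentary nTG hearts (x axis) for each gene list with at least 7 genes tested (y axis, number tested in brackets); triangles are M, squares F, circles the mean over both, and the dashed line is the median of all genes (-0.0066). The interferon list is lowest at -0.32 and the blood list highest at 0.26, and most metabolic lists lie between 0 and 0.10.

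The trained and sedentary TG hearts of the same series, 17 M and 14 F libraries that share no mouse with the nTG groups, gave the comparison for the 43 genes. The members were chosen on their nTG values, so the larger effect lies on the nTG side by that choice. In a fit of all 64 libraries, 28 of the 33 rising and 10 of the 10 falling genes had the same direction in TG as in nTG hearts, where 50.6% of all genes were above 0 in TG. The median log2 fold change of the rising genes was 0.18 in nTG and 0.06 in TG hearts, and of the falling genes -0.33 and -0.20. In TG hearts that fit called, at an edgeR adjusted p under 0.05, 3036 genes in M (18%), 0 in F (0%; 606 at an unadjusted p under 0.05) and 88 for the mean of both sexes (0.52%). In TG M hearts 8 of the 43 were called, a share close to the 18% of all genes, and these 8 had the direction they had in nTG hearts. In the mean of both sexes 4 were called with the same direction: Got1 (0.16 ± 0.04), Pik3r1 (0.23 ± 0.05), Slc8a1 (0.16 ± 0.04) and Rwdd4a (0.13 ± 0.03). Among the collagens, Col6a3 was at -0.27 ± 0.08 and Col5a3 at -0.26 ± 0.08 in TG hearts (edgeR adjusted p 0.0874 and 0.095). In nTG hearts the same fit gave -0.26 ± 0.08 and -0.31 ± 0.08 (edgeR adjusted p 0.109 and 0.0521). Neither gene passed in either genotype in that fit. Gpd1 was at -0.02 ± 0.06, Hk1 at 0.0047 ± 0.03 and Gys1 at 0.03 ± 0.04 in TG hearts. Of the 43, 19 had an unadjusted p under 0.05 for the difference between the genotypes, where 10.5% of all genes did.

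No gene passed the test of that difference: edgeR called 0 of 16913 genes (0%), with 1775 at an unadjusted p under 0.05, and DESeq2 called 15. Within M hearts edgeR called 0 and limma voom 300, and within F hearts both called 0. The interferon list had a median of -0.0086 in TG hearts, with 13 genes below and 11 above 0, and 9 of its 24 genes had an unadjusted p under 0.05 for the difference between genotypes, against 10.5% of all genes, none past the adjusted threshold. The collagen list was at -0.20 in TG hearts, with 9 of 18 genes lower at an unadjusted p under 0.05, against 9.24% of all genes. The blood list, at 0.26 in nTG, was at -0.83 in TG hearts, with 7 of 8 genes lower at an unadjusted p under 0.05, against 9.24% of all genes. Its part in the differences between genotypes was not tested.

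**Figure D5:**
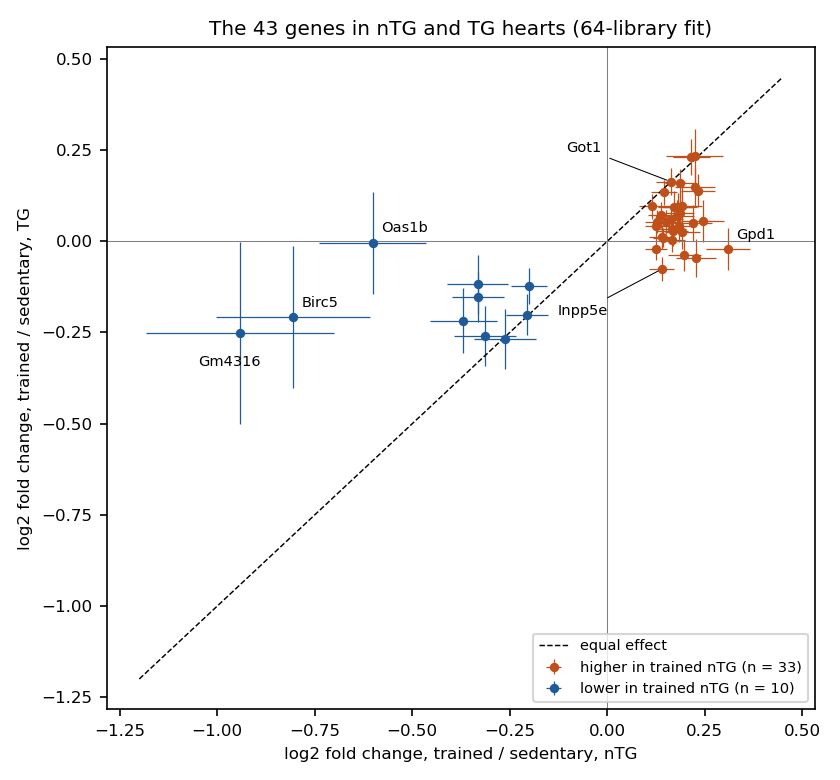
Log2 fold change of trained over sedentary hearts in nTG (x axis) and TG mice (y axis) for the 43 genes called in nTG hearts, from the fit of 64 libraries; points are genes, bars are standard errors and the dashed line marks equal effects. Most rising genes lie below the line, from -0.08 (Inpp5e) to 0.23 (Fign) on the TG axis with a median of 0.06, while Got1 and several falling genes lie close to it.

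In the lncRNA table, whose columns carry their own labels but were scaled by the totals of the matched gene columns, 968 transcripts passed the filter on low counts and edgeR called 0 (0%), with 55 at an unadjusted p under 0.05; DESeq2 also called 0, with 64 at that level. The lowest adjusted p was 0.259. The median log2 fold change over the 968 was -0.07, and -0.0068 over 946 transcripts when the table was scaled by its own totals and TMM factors, again with 0 called. Kcnq1ot1, the antisense transcript of the Kcnq1 imprinted domain, had the smallest p, with a log2 fold change of -0.21 ± 0.06; it was singled out after its value was seen.

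The count of 43 moved with single libraries. It ranged from 9 to 107 when 1 library was left out at a time: without sedentary F replicate 5 there were 9 calls and without sedentary F replicate 6 there were 107, while all 43 genes kept their direction in each of the 33 fits. Of the metabolic genes, Gpd1, Got1, Phka1 and Pfkfb4 were called in all 33 of these fits, Hk1 in 31, Gys1 in 30 and Acsl1 in 13. Pik3r1 was called in 33 and Slc8a1 in 17, and among the falling genes Afap1l2 was called in 32, Dtx4 in 23, Col6a3 in 22, Col5a3 in 20, Col4a3 in 19, Enpep in 11 and Birc5 in 8. The highest adjusted p of edgeR for a named gene in any of these fits was 0.0940. Exons of 15 of the 43 genes overlap those of another annotated gene, among them Gys1 with Ruvbl2 and Gpd1 with Gm16537 on the opposite strand, and whether counting used the strand is not given in the sources used here.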

How the data were processed

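Hearts were profiled by bulk RNA sequencing of total RNA after depletion of ribosomal RNA, per the labels' protocols. The submitters' processing notes name cutadapt 2.3, FastQC 0.11.8, MultiQC 1.7, STAR 2.7.8a and RSEM 1.3.3 and the builds GRCm38 and mm10, without their roles. The deposited gene table holds whole-number counts for 16913 genes, and the deposited lncRNA table holds expected counts for 3787 transcripts, which were rounded to whole numbers. Symbols and exons came from GENCODE M21, which matched 16887 gene IDs; 38 of the 43 called genes matched a RefSeq promoter. Gene columns were assigned to libraries by their correlation with the lncRNA columns (log2 CPM, pseudocount 0.5).

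Counts were tested with edgeR 4.0.16 (TMM scaling, quasi-likelihood F test, R 4.3.3), with sex as a covariate over 33 libraries for the mean effect, a mean per group for the effects within a sex, and 8 group means over 64 libraries for TG hearts and differences between genotypes. The threshold was a Benjamini-Hochberg adjusted p of 0.05 over all genes. The filter on low counts kept all genes, the lowest mean being 10.5 counts; in the lncRNA table, scaled by the totals of the matched gene columns, it kept 968 transcripts. CPM are TMM-scaled. The scripts were tested on simulated data. Limma 3.58.1 and DESeq2 1.42.0 were alternatives.

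Named genes are the 15 rising and 15 falling (7 qualified) with the smallest p, a mean of at least 50 counts and no clone name, plus called members of 38 gene lists. Members and lists were chosen with earlier results of these data known. No library was left out.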

Additional observations from a re-analysis of the deposited data

Results flagged for a closer look

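Libraries that stood apart from the rest of their group by Dixon's test were sought in 156 groups of values (gene totals, mitochondrial share, 12 list sums and 25 genes, each in the 4 nTG groups), where chance gives about 1 in 20, or 7.8. There were 13. Among list sums these were sedentary M replicate 7 for the interferon list (1074 CPM, others 558 to 771 CPM), trained F replicate 6 for the mitochondrially encoded mRNAs (174800 CPM, others 157100 to 166000 CPM) and trained M replicate 2 for the natriuretic and fetal-programme genes (6026 CPM, others 2311 to 3579 CPM).

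Gpd1 stood apart in 3 groups, at 104.1 CPM in trained M replicate 1 (others at most 84.4 CPM), at 88.97 CPM in trained F replicate 2 (others at most 72.0 CPM) and at 39.62 CPM in sedentary F replicate 5 (others at least 55.5 CPM). Its edgeR adjusted p was at most 0.0407 with any 1 library left out. In the sedentary F group, Got1 was low in replicate 4 at 491.7 CPM (others at least 575 CPM), Pik3r1 was high in replicate 6 at 230.8 CPM (others at most 205 CPM) and Col4a3 was high in replicate 4 at 10.73 CPM (others at most 7.54 CPM). In the sedentary M group, Gys1 was low in replicate 6 at 179.8 CPM (others at least 207 CPM) and Slc16a10 was high in replicate 2 at 28.61 CPM (others at most 24.8 CPM). Trained M replicate 3 was low for Pla2g12a at 31.61 CPM (others at least 37.9 CPM) and high for Birc5 at 0.4458 CPM (others at most 0.261 CPM).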

How the results depend on the processing

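The count of 43 genes was 201 (131 higher, 70 lower) by DESeq2 and 65 (55 higher, 10 lower) with 8 group means over 64 libraries. It was 45 with DESeq2's size factors, 43 without a filter, 51 with a mean of at least 50 counts, 46 by limma voom, 48 with the library number as a covariate and 35 as the mean of the within-sex effects, and all 43 genes (41 with that higher minimum, where 2 were not tested) kept their direction in these. Within M hearts the count of 0 was 2 by DESeq2 and 1 by voom, within F hearts 220, 11 and, over 64 libraries, 25; the difference between the sexes had 2 by DESeq2. The genotype difference had 15 calls by DESeq2 over both sexes and, in M, 1 by DESeq2 and 300 by voom. The 88 calls in TG hearts were 381 by DESeq2, 1807 by voom and 2 by deposited names.

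With 1 library left out, the 43 became 9 to 107, outside 1.5 times in 12 of 33 fits, the M count 0 to 1 and the F count 0 to 47; the counts for the difference between the sexes and for lncRNAs were 0 to 0. The calls fell to 10 without sedentary F replicate 3, 14 without sedentary M replicate 6, trained F replicate 1 or sedentary F replicate 4, 16 without sedentary M replicate 5, 17 and 24 without trained F replicates 2 and 3 and 27 without trained F replicate 9, and rose to 67 and 77 without sedentary F replicate 8 and trained F replicate 4. In F hearts the highest count came without trained F replicate 4. The 25 named genes kept their direction in all 825 such fits, with the calls kept by each given in the report.

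With the replicate number as a block within each sex, 6 genes were called (5 higher, 1 lower), all among the 43. Same-numbered libraries had correlations of -0.20 to 0.16 between their deviations, and 2 of 15 pairs correlated best with their own number. The labels do not say what same-numbered libraries share, and such correlations cannot show that they share nothing but a number.

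By the deposited column names, 2748 genes were called (1364 higher, 1384 lower), 705 in M and 279 in F hearts. Of the 43, 9 kept their direction. The log2 fold changes became -0.048 for Card19, -0.073 for Rab7, -0.013 for Phka1, -0.18 for Got1, -0.22 for Pik3r1, -0.15 for Sh3kbp1, -0.20 for Gys1, -0.050 for Slc16a10, -0.27 for Msrb1, -0.24 for Pla2g12a, -0.13 for Tns1, -0.12 for Acsl1 and -0.17 for Slc8a1, and 0.069 for Pfkfb4, 0.045 for Afap1l2, 0.14 for Dtx4, 0.41 for Col6a3, 0.022 for Col5a3, 0.28 for Col4a3, 0.11 for Enpep and 0.39 for Birc5. The match itself gave the same 64 pairs with a mean of 5 or 100 counts and by Spearman's correlation, and the mitochondrial share kept its side of the threshold without Ttn. The medians of 31 of the 38 lists had the other sign by the deposited names. Under the other settings 0 of 1596 list medians moved by more than the spread of the list's mean log2 level between single libraries. That limit is wide for a change in a median, so the 0 does not show that the medians are stable. The medians of 8 lists changed sign in at least 1 of these settings, namely atrial tissue (-0.14, up to 0.22 with the replicate block), the natriuretic and fetal-programme genes (-0.0035, up to 0.09), the nuclear subunits of complex I, ATF4 targets, NRF2 targets, ubiquitin ligases and autophagy, and skeletal muscle and adipose markers. The cause of these shifts was not tested. Gene totals were 36.6 to 67.1 megacounts, and the called gene with the fewest counts was Birc5, with 16.2 on average; no thinning to other depths was run.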

Other observations

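Other called genes, outside the naming rule and chosen after their values were seen, were Lrg1, a secreted glycoprotein (higher by 17.7%), Eef2k, the kinase that slows translation elongation (13.2%), Mlip, a lamin-interacting protein of muscle (8.71%), Srpk2, a kinase of splicing factors (13.8%), and Sos2, an exchange factor for Ras (8.86%). The lowest value of the 43 was that of the predicted gene Gm4316, which fell by 0.94 on the log2 scale (SE 0.21, edgeR adjusted p 0.0325) and ranged from 0.411 to 2.51 CPM in sedentary M and from 0.712 to 3.13 CPM in sedentary F hearts.

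Genes of branched-chain amino acid breakdown had 15 of 18 members above 0 in trained nTG hearts, with 4 higher and 0 lower at an unadjusted p under 0.05, against 6.81% and 6.71% of all genes, and a median of 0.06 on the log2 scale (0.04 without sedentary F replicate 4). Genes of pyruvate oxidation and the TCA cycle had 19 of 22 above 0, with 7 higher and 0 lower at that level and medians of 0.00 in M and 0.08 in F hearts. By edgeR 0 genes of either list passed the adjusted threshold. Of all genes, 46.3% were above 0.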
